A study of Mus musculus with 39 samples.

Results

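The comparison described here set N2a cells that received RfxCas13d with Rbfox3 crRNA 3 against N2a cells that received RfxCas13d with the non-targeting (NT) crRNA. N2a is a mouse neuroblastoma line, and all of these cells were of the WT genotype, were not of the tdTomato line that the series also holds, and were harvested 48 h after transfection with plasmids for the nuclease and the crRNA. The 6 libraries of this comparison were chosen by the labels from 39 libraries of the series: 3 libraries of Rbfox3 crRNA 3, and the 3 NT libraries (replicates 1, 2 and 6) whose library names carry the same prefix, WT. Libraries that share a prefix are read here as an experiment set, which the labels do not state. In each group, 2 libraries came from the LDK library series and 1 from the LDL series, and the series entered the fit as a covariate. Only to show where crRNA 3 stood apart, the same genes were read in 18 libraries of 6 other crRNAs of the WT set (crRNAs 1 and 8 to Sik3, 1 and 3 to Map2, and 4 and 6 to Mapt). They were also read in 3 libraries of Rbfox3 crRNA 5 and in the 3 NT libraries (replicates 3, 4 and 5) that share its prefix, N, called the N set. Every group, NT included, carried transfected RfxCas13d, so no group shows untransfected cells. Transfection efficiency and the level of RfxCas13d were not analysed here, and the labels do not say whether replicates came from separate cultures, so p-values measure the spread between these libraries, which may be technical.

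RfxCas13d is a ribonuclease that a short crRNA directs to a complementary RNA. Once bound to its target, a Cas13 enzyme can also cut RNAs that do not match its crRNA, which is known as collateral activity. The study asked how targeting crRNAs change the transcriptome of N2a cells compared with the NT crRNA. Rbfox3 encodes NeuN, an RNA-binding protein of the RBFOX family that regulates alternative splicing and serves as the standard nuclear marker of mature neurons. N2a cells are dividing cells that keep features of the sympathoadrenal lineage. Replication-dependent histone genes, the group that changed most here, are transcribed in S phase, and their mRNAs normally end in a conserved stem-loop instead of a poly(A) tail.

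The spacers of both Rbfox3 crRNAs and of the NT crRNA are 22 nt long and are shown because they are the designed difference between these groups. They are written 5′ to 3′ as DNA letters, followed by the Rbfox3 sequence that crRNA 3 is complementary to. Capitals in that site mark the bases on the upstream exon.

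Rbfox3 crRNA 3 spacer: gcctccataaatctcagcacca
Rbfox3 crRNA 5 spacer: aaatccatcctgatacacgacc
NT crRNA spacer: tcaccagaagcgtaccatactc
Rbfox3 site of crRNA 3: TGGTGCTGAGATTTATggaggc

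The site of crRNA 3 lies in the Rbfox3 coding sequence on the minus strand of chromosome 11 (GRCm38) and crosses an exon junction. Its first 16 bases are at chr11:118496351-118496366 on the upstream exon, and its last 6 bases are at chr11:118495277-118495282 on the downstream exon. It is present in 6 of the 10 annotated Rbfox3 transcripts. The site of crRNA 5 is immediately upstream on the same exon, at chr11:118496369-118496390. Among 141767 annotated transcripts, the NT spacer had no gene with a full match and no gene with 1 to 3 mismatches.

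Rbfox3 itself was close to undetected in these cells. The Rbfox3 level was 0.0289, 0.136 and 0.0442 FPKM (fragments per kilobase of exon, scaled to the counted reads of the library) in the 3 crRNA 3 libraries, against 0.0143, 0 and 0.0165 FPKM in the 3 NT libraries. These values correspond to an estimated 2, 10 and 3 reads in crRNA 3 libraries and 1, 0 and 1 reads in NT libraries. The 3 crRNA 3 libraries were therefore above the 3 NT libraries, at counts too low for any statement on a knockdown. Rbfox2, the family member that N2a cells expressed, was at 27.8, 27.8 and 28.7 FPKM with crRNA 3 and at 26.4, 28.3 and 25.8 FPKM with NT, and the groups overlapped (log2 fold change 0.07 ± 0.06 SE, limma adjusted p = 0.37). Rbfox1 was at 0.114, 0.0718 and 0.107 FPKM with crRNA 3 and at 0.0851, 0.107 and 0.0434 FPKM with NT. Of 18 tested neuronal splicing regulators, Elavl2 (log2 fold change 0.18) and Mbnl1 (0.13) rose and Qk (-0.18) fell, beside 19.1% of all tested genes that rose and 13.4% that fell, and the calls of all 3 genes were lost when some single libraries were left out.

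The depth of the 30 WT libraries was estimated at 10403951 to 16854504 counted reads, with 13765396 to 14918737 in the crRNA 3 libraries and 12322143 to 15059935 in the NT libraries used here. N2a identity rested on part of the usual markers: 15 of 20 listed N2a and sympathoadrenal markers passed the filter on low values, while Dcx, a microtubule-associated protein gene of migrating neurons, was listed at 0 in the 6 libraries. Of the macrophage, fibroblast, astrocyte and oligodendrocyte, and epithelial and endothelial marker lists, 2 members each passed the filter and 0 were called. The summed macrophage markers were 1.83, 2.75 and 8.85 FPKM with crRNA 3 and 1.29, 1.46 and 6.67 FPKM with NT, with the LDL library the highest in both groups. Summed fibroblast markers were at 4.5 to 5.2 FPKM with crRNA 3 and 3.3 to 4.0 FPKM with NT, and their part in the results was not tested.

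In all, 143 of 11554 tested genes (1.24%) changed, meaning an adjusted p under 0.05 with at least a 2-fold change. Of these, 115 (0.995%) were higher and 28 (0.242%) lower with crRNA 3. At an adjusted p under 0.05 alone, which is what rose and fell mean in the text, 2210 genes (19.1%) rose and 1544 (13.4%) fell, and the median log2 fold change of all tested genes was 0.04. The 115 higher genes held 37 of the 44 tested replication-dependent histone genes, 41 other protein-coding genes, 8 snoRNA genes, 5 microRNA genes and 24 genes of other or no annotation. The 28 lower genes held 22 protein-coding genes, 2 microRNA genes, 1 snoRNA gene and 3 others. Among the 11554 genes, 26.2% had all 3 crRNA 3 libraries above all 3 NT libraries and 18.5% had them below. Between the NT groups of the N set and the WT set, which received the same crRNA, 130 genes (1.13%) changed by the same thresholds, 81 higher (0.701%) and 49 lower (0.424%) in the N set, and 26.5% of genes rose and 19.9% fell. The comparison of crRNA 3 with NT stays within the WT set.

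**Figure D1:**
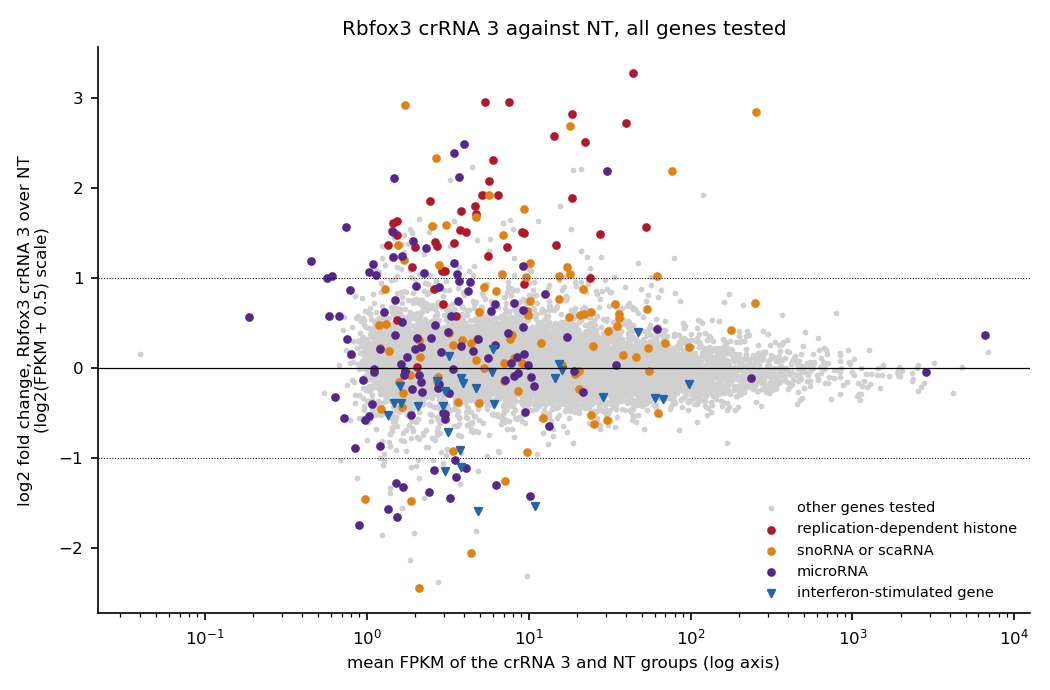
Log2 fold change of Rbfox3 crRNA 3 over NT (log2(FPKM + 0.5) scale) against the mean FPKM of both groups (log axis) for each tested gene, with dotted lines at a 2-fold change. Histone genes (red) lie above 0 up to 3.28, snoRNA and microRNA genes (orange, purple) spread on both sides at low levels, and interferon-stimulated genes (blue triangles) reach -1.59.

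Replication-dependent histone genes were the group with the largest rise. A list of 65 such genes, made from gene symbols, had 44 that passed the filter on a mean of 1 FPKM over the 30 libraries. Of these, 40 rose and 0 fell, 37 of them by at least 2-fold, with a median log2 fold change of 1.51 against 0.04 for all tested genes. The summed level of all 65 genes was 733.9, 674.5 and 627.6 FPKM with crRNA 3, against 188.6, 175.1 and 160.8 FPKM with NT, a 3.88-fold higher mean. The groups were far apart in each library series, with 733.9 and 674.5 against 188.6 and 175.1 FPKM in LDK libraries and 627.6 against 160.8 FPKM in LDL libraries. The other 21 histone genes were too low to test.

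All histone classes moved the same way, and H4 genes, which encode the most conserved core histone, moved most. The 12 tested H4 genes all rose, with a median log2 fold change of 2.29, and their summed level was 387.3, 342.3 and 317.6 FPKM with crRNA 3 against 70.98, 62.57 and 64.21 FPKM with NT. Medians of the other classes were 1.53 for H2A (7 of 9 tested genes rose), 1.52 for H3 (5 of 7), 1.36 for H2B (11 of 11) and 1.34 for the linker histone H1 (5 of 5). Genes without a call were H3c13, H3c3, H2ac8 and H2ac20. The large histone cluster on chromosome 13 had 39 tested genes, 37 of which rose (median log2 fold change 1.52), and the cluster on chromosome 3 had 5, 3 of which rose (median 0.88).

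H4c14, an H4 gene of the chromosome 3 cluster, had the largest fold change of the 44 on the log2(FPKM + 0.5) scale. It was at 88.4, 82.6 and 68.8 FPKM with crRNA 3 and at 9.74, 7.08 and 6.75 FPKM with NT (log2 fold change 3.28 ± 0.14 SE, limma adjusted p = 1.2e-13). H4c9 was nearly as abundant, at 78.9, 63.9 and 64.8 FPKM with crRNA 3 and 10.9, 7.4 and 12.5 FPKM with NT (log2 fold change 2.72). Both genes had their lowest crRNA 3 library several-fold above their highest NT library. H3c11, an H3 gene, was at 32.8, 35.3 and 30.9 FPKM with crRNA 3 and at 4.24, 4.26 and 4.19 FPKM with NT (log2 fold change 2.82 ± 0.23 SE, adjusted p = 2.2e-09). H4c11 was at 43.1, 35.4 and 35.5 FPKM with crRNA 3 and at 8.34, 4.86 and 5.94 FPKM with NT (2.51). H4c1 was at 25.3, 28.0 and 20.6 FPKM with crRNA 3 and at 2.17, 3.94 and 5.7 FPKM with NT (2.57). None of these genes had overlapping groups, and neither did the less abundant H4c2 and H2bc15. Of all 44 tested histone genes, 39 had every crRNA 3 library above every NT library, and 5 overlapped. H4c2 was at 17.2, 12 and 11.9 FPKM with crRNA 3 and at 1.41, 1.47 and 1.08 FPKM with NT (2.95). H2bc15, an H2B gene, was at 14.3, 6.58 and 9.71 FPKM with crRNA 3 and at 0.59, 3.19 and 1.7 FPKM with NT (2.31), with more spread than the H4 genes.

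**Figure D2:**
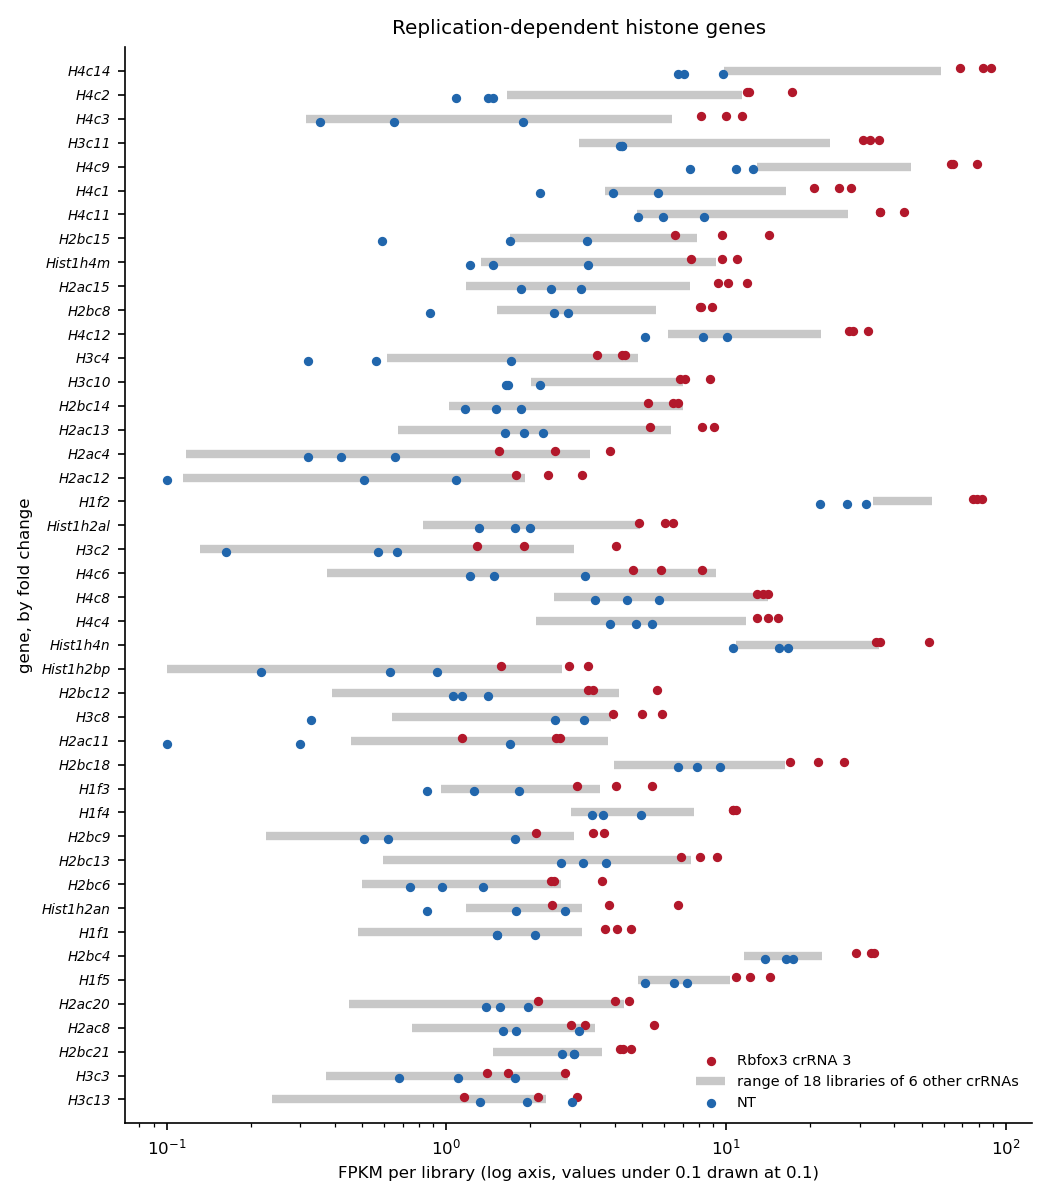
FPKM per library (log axis) of the 44 tested replication-dependent histone genes, ordered by fold change, with crRNA 3 in red, the range of 18 libraries of 6 other crRNAs as grey bars and NT in blue. The red points lie right of the blue points for 39 of the 44 genes, and right of the grey bar for 19.

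Histone genes are short, similar to each other and lack a poly(A) tail, so poly(A)-selected libraries see only a part of their RNA, and reads shared between copies could be assigned to one or another. A 16-base run that was among the most common near the 3′ ends of listed histone transcripts is shown because it holds most of the stem-loop.

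Histone 3′ end run: aaaggctcttttcaga

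It was found within the last 150 nt, on the transcript strand, for 13 of the 65 listed histone genes, and anywhere in transcripts of 26 of 24730 searched genes (0.105%). The run occurred anywhere in the transcripts of 22 listed histone genes. Of these, 11 were tested and 10 rose (median log2 fold change 1.52), and of the 33 tested histone genes without it 30 rose (median 1.51). The annotated transcripts of histone genes differ in how far they extend, so a missing match says only that these letters are not in the annotated sequence. H2bu2, an H2B gene that was not on the list, was at 187, 195 and 187 FPKM with crRNA 3 and at 54.5, 48.9 and 45.8 FPKM with NT (log2 fold change 1.92). Of 15 tested factors of histone mRNA processing and its cap complex, 7 rose and 1 fell (median log2 fold change 0.17). The shares (46.7% and 6.67%) stand beside 19.1% and 13.4% of all tested genes. Ncbp2, the small cap-binding subunit, was at 35.2, 32.8 and 34.8 FPKM with crRNA 3 and at 21.7, 23.3 and 25.3 FPKM with NT (0.54). Lsm10, a core protein of the U7 snRNP that cleaves histone pre-mRNA, rose by a log2 fold change of 0.48, and Srrt, a cap complex partner, fell (-0.37).

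Cell cycle genes had more members that fell than rose against NT. Of 35 tested G1/S genes 4 rose and 13 fell (median log2 fold change -0.09), and of 30 tested G2/M genes 4 rose and 9 fell (median -0.08). Among all genes 13.4% fell and 19.1% rose. Against the 6 other crRNAs, 7 G1/S genes rose and 2 fell, and 3 G2/M genes rose and 3 fell. In that comparison 13.6% of all tested genes rose and 9.75% fell.

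Small nucleolar RNAs, which guide methylation (box C/D) or pseudouridylation (box H/ACA) of rRNA and are processed from introns, had few calls, some of them with large fold changes. Of 60 tested box C/D genes 8 rose and 1 fell (median log2 fold change 0.26), of 30 tested box H/ACA genes 5 rose and 0 fell (median 0.51), and of 6 tested Cajal body RNA genes 0 were called (median 0.48). The shares of box C/D (13.3%) and box H/ACA genes (16.7%) that rose were below the 19.1% of all tested genes. By at least 2-fold, 8 of the 96 genes (8.33%) were higher and 1 lower, beside 0.995% and 0.242% of all tested genes. Summed box C/D levels were 1746, 1854 and 1697 FPKM with crRNA 3 and 1098, 1035 and 1076 FPKM with NT. Summed box H/ACA levels were 794, 895 and 811 FPKM with crRNA 3 and 560, 574 and 606 FPKM with NT. Snord104 was the most abundant of the changed genes, at 443, 502 and 397 FPKM with crRNA 3 and at 51.2, 80.9 and 56.6 FPKM with NT (log2 fold change 2.84 ± 0.14 SE, limma adjusted p = 1.3e-12). Snora78 was at 29.4, 35.0 and 30 FPKM with crRNA 3 and at 6.29, 2.96 and 4.64 FPKM with NT (2.69), and Snord42b at 120, 145 and 113 FPKM with crRNA 3 and at 29.5, 28.9 and 23.6 FPKM with NT (2.18). The groups did not overlap for any of these 3 genes. Other snoRNA calls rested on a few reads: Snord87 was at 3.84, 4.52 and 1.96 FPKM with crRNA 3 and listed at 0 in all 3 NT libraries. Snord66 was at 0, 0 and 1.25 FPKM with crRNA 3 and at 4.87, 2.29 and 4.19 FPKM with NT, and its call was lost when any of 4 single libraries was left out.

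Of 20 tested snoRNA host transcripts, 8 rose and 2 fell (median log2 fold change 0.14). These shares (40% and 10%) stand beside 19.1% and 13.4% of all tested genes. Snhg10, a host RNA, was at 28.7, 24.2 and 20.4 FPKM with crRNA 3 and at 7.2, 5.89 and 6.74 FPKM with NT (log2 fold change 1.80, adjusted p = 1e-07 in limma). Dancr, a noncoding RNA that hosts small RNAs, was at 11.3, 12 and 13.2 FPKM with crRNA 3 and at 3.7, 3.79 and 4.12 FPKM with NT (1.54). Gas5, a host RNA whose exons are degraded by nonsense-mediated decay, was at 181, 174 and 177 FPKM with crRNA 3 and at 125, 118 and 127 FPKM with NT (0.52). Snhg15 moved the other way, at 125, 118 and 119 FPKM with crRNA 3 and at 223, 206 and 220 FPKM with NT (-0.84, adjusted p = 2.2e-08). All 3 crRNA 3 libraries of Snhg15 were below all 3 NT libraries.

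MicroRNA genes in these libraries stand for reads of primary transcripts or overlapping genes, since mature microRNAs are too short for this preparation. Of 117 tested, 7 rose (5.98%) and 2 fell (1.71%), fewer than the 19.1% and 13.4% of all tested genes (median log2 fold change 0.17). Mir7666 was at 62.0, 59.6 and 30.3 FPKM with crRNA 3 and at 7.7, 13.3 and 10.3 FPKM with NT (log2 fold change 2.19, limma adjusted p = 0.0031). Mir6951 (2.38), Mir1938 (2.12) and Mir8116 (1.13) also rose, and Mir7036b (-1.43) and Mir6945 (-1.66) fell. The calls of these 5 genes were lost in at least 3 of the 6 fits that left out 1 crRNA 3 or NT library.

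Outside these RNA classes, and with predicted genes left aside, the named gene with the largest log2 fold change was Tmem158, which encodes a membrane protein induced by RAS signalling. It was at 8.85, 9.35 and 7.87 FPKM with crRNA 3 and at 2.2, 1.42 and 2.1 FPKM with NT (log2 fold change 1.95 ± 0.14 SE, limma adjusted p = 2.4e-10). Rab26os, an antisense transcript of Rab26, was at 25, 27.9 and 29.0 FPKM with crRNA 3 and at 11, 7.64 and 8.79 FPKM with NT (1.54). Reads of Rab26os and of Rab26 may not have been told apart, since the strand setting of the counting is not given in the sources used here. Ltb, a lymphotoxin subunit, was at 2.79, 1.71 and 2.65 FPKM with crRNA 3 and at 0.58, 0.545 and 0.518 FPKM with NT (1.44). Insm1, a zinc finger factor of neuroendocrine progenitors, was at 23.8, 21.6 and 22.4 FPKM with crRNA 3 and at 11.3, 10.1 and 11.6 FPKM with NT (1.01). Other genes that rose by at least 2-fold were the tumour suppressor candidate Tusc1 (log2 fold change 1.47), the retrotransposon-derived genes Rtl8c (1.42) and Rtl8a (1.26), the acute phase protein gene Saa3 (1.39), the small heat shock gene Hspb9 (1.38), F8a (1.35), Tmem242 (1.30), Eid2 (1.30) and the relaxin gene Rln3 (1.29). The call of Rln3 was lost without crRNA 3 replicate 1 or without NT replicate 6 (log2 fold change 0.93 in each case). Across 10854 protein-coding genes the rank correlation of the log2 fold change with the number of exon blocks was -0.10, with exon length 0.08 and with GC content -0.03, given as a description, since these genes share libraries and are not independent. For the log2 fold change against the 6 other crRNAs these correlations were -0.29, -0.13 and 0.01.

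Genes that were lower with crRNA 3 included cytokine and interferon-stimulated genes, with 4 members of the interferon list among the 28. Il17f, a cytokine of the interleukin 17 family, was at 0.482, 0.739 and 0.431 FPKM with crRNA 3 and at 5.33, 3.94 and 5.64 FPKM with NT (log2 fold change -2.38 ± 0.25 SE, limma adjusted p = 9.9e-08). With NT of the N set Il17f was at 15.8, 14.5 and 14.8 FPKM, above all 3 NT libraries of the WT set. Il17c, of the same family, was at 0.79, 0.652 and 0.303 FPKM with crRNA 3 and at 3.83, 3.87 and 2.37 FPKM with NT (-1.84). Rsad2, which encodes the antiviral enzyme viperin, was at 1.82, 2.41 and 2.34 FPKM with crRNA 3 and at 7.55, 7.95 and 7.24 FPKM with NT (-1.59, adjusted p = 6.8e-10). All 3 genes had crRNA 3 libraries far below the NT libraries. Oasl1, an interferon-induced protein related to 2′-5′ oligoadenylate synthetases, was at 5.1, 6.2 and 4.91 FPKM with crRNA 3 and at 17.3, 15.7 and 16.6 FPKM with NT (-1.54). Ifit1, an antiviral RNA-binding protein, was at 1.56, 1.83 and 1.7 FPKM with crRNA 3 and at 4.09, 4.12 and 4.85 FPKM with NT (-1.14). Of the 29 tested interferon-stimulated genes 12 fell and 1 rose (median log2 fold change -0.32), and of 17 tested NF-kB targets and chemokines 6 fell and 2 rose (median -0.05). These shares stand beside the 13.4% of all genes that fell. The summed level of the interferon list was 396.6 ± 7.36 FPKM with crRNA 3 and 469.7 ± 9.81 FPKM with NT (SD, n = 3 each).

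The other lower genes were of mixed function. Pygm, muscle glycogen phosphorylase, was at 2.05, 1.59 and 1.82 FPKM with crRNA 3 and at 7.33, 7.99 and 7.59 FPKM with NT (log2 fold change -1.81, adjusted p = 1.8e-08 in limma). The homeobox gene Rhox6 (-2.13), Ly6g6c (-1.86), Tmem236 (-1.56), the galectin gene Lgals3 (-1.45), the meiotic gene Rec114 (-1.39), the collectin gene Colec11 (-1.30) and the V-ATPase subunit gene Atp6v1e2 (-1.22) also fell by at least 2-fold. Ddc, the decarboxylase that makes dopamine and serotonin, was at 4.59, 4.58 and 3.96 FPKM with crRNA 3 and at 9.25, 8.89 and 8.3 FPKM with NT (-0.94), with no overlap between the groups.

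**Figure D3:**
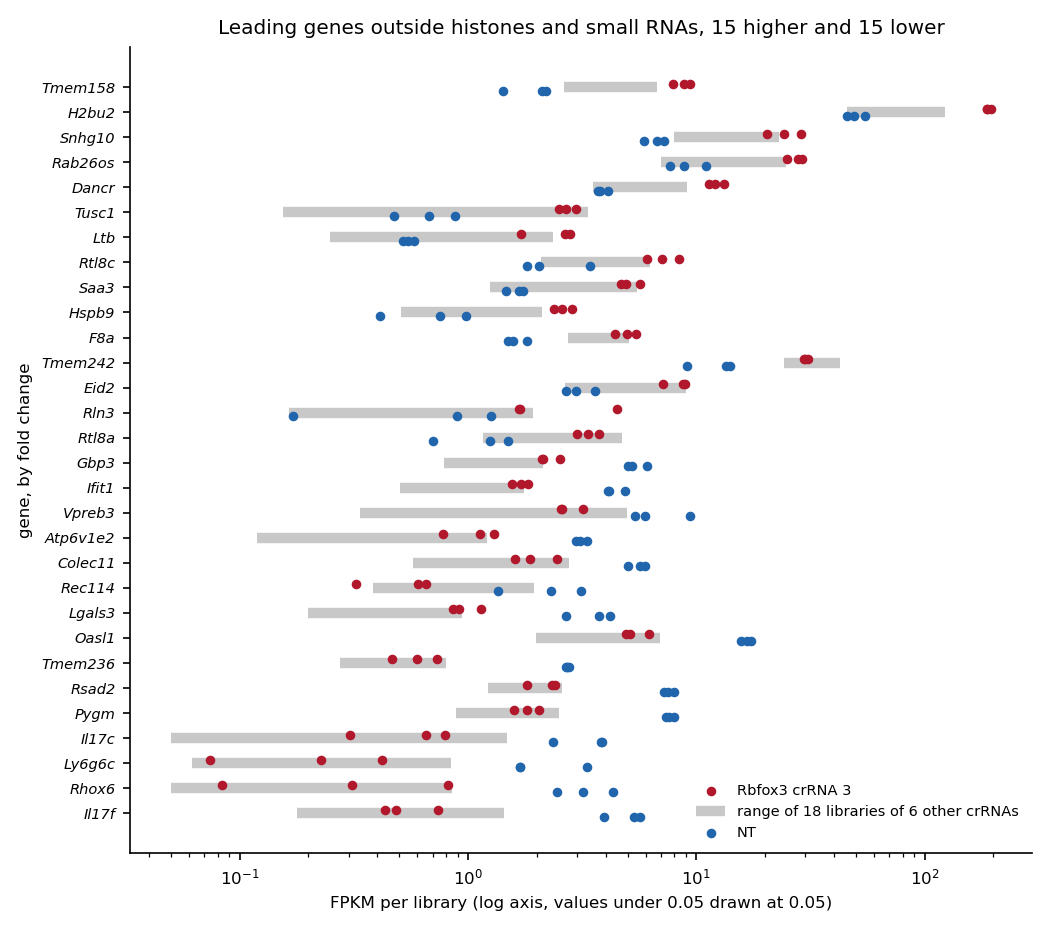
FPKM per library (log axis) of 15 genes higher and 15 genes lower with crRNA 3 outside histones and small RNAs, ordered by fold change, with crRNA 3 in red, the range of 18 libraries of 6 other crRNAs as grey bars and NT in blue. For the lower genes the red points mostly lie within the grey bars and the NT points outside them, as for Il17f (0.431 to 0.739 FPKM with crRNA 3, 0.179 to 1.43 FPKM in the other crRNAs, 3.94 to 5.64 FPKM with NT).

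Immediate early genes, which are transcribed within minutes of a stimulus, moved in both directions. Of 40 tested, 20 rose and 6 fell (median log2 fold change 0.19), where 19.1% of all genes rose, and none of the 40 changed by 2-fold. Junb, an AP-1 subunit, was at 183, 177 and 168 FPKM with crRNA 3 and at 130, 117 and 122 FPKM with NT (log2 fold change 0.52). Egr1, a zinc finger factor induced by MAP kinases, was at 109, 111 and 102 FPKM with crRNA 3 and at 78.4, 75.1 and 79.1 FPKM with NT (0.47). Gadd45a (0.82), Ccn1 (0.80), Ier5 (0.68) and Jun (0.48) also rose, and Fos, the classical member of the list, was at 26.1, 24.5 and 25.9 FPKM with crRNA 3 and at 27.4, 24.4 and 23.6 FPKM with NT, where the groups overlapped (0.02, adjusted p = 0.84 in limma). Fosb moved the other way, at 4.31, 4.59 and 4.07 FPKM with crRNA 3 and at 8.63, 8.97 and 8.39 FPKM with NT (-0.93), as did Csrnp1 (-0.75) and Atf3 (-0.68). Of 13 tested kinases and phosphatases of the ribotoxic stress response, 2 rose and 3 fell, beside 19.1% and 13.4% of all genes.

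Ribosomal protein mRNAs had more members that rose than fell. Of 83 tested cytosolic ribosomal protein genes 27 rose and 11 fell (median log2 fold change 0.08), and 4 changed by 2-fold, all upward. Of all tested genes 19.1% rose and 13.4% fell, so the share of the list that fell (13.3%) was that of all genes. Rps18, a small subunit protein, was at 127, 100 and 103 FPKM with crRNA 3 and at 45.2, 45.1 and 50.4 FPKM with NT (log2 fold change 1.22, limma adjusted p = 3e-10), and Rps29 (1.23) and Rps28 (1.16) rose by as much. Rps18, Rps28 and Rps29 have near-identical pseudogene copies, so reads could have been split between copies. The summed level of the list was 44108 ± 1676 FPKM with crRNA 3 and 45551 ± 1982 FPKM with NT (SD, n = 3 each), which is a difference within the spread. Of 78 tested mitochondrial ribosomal protein genes 7 rose and 17 fell (median -0.05), with Mrpl36 rising (0.84) and Mrpl12 falling (-0.52). Of 41 tested ribosome biogenesis factors 4 rose and 15 fell (median -0.12). Among those that rose, Rrs1, a factor of the large subunit, was at 49.1, 51.3 and 54.1 FPKM with crRNA 3 and at 27.7, 25.7 and 29.0 FPKM with NT (0.90).

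Of the other lists, proteasome subunits had 17 of 45 fall and 1 rise (median log2 fold change -0.12), translation factors 17 of 67 fall and 4 rise (median -0.06), complex I subunits 9 of 36 fall and 3 rise (median -0.10), and complexes II to V 12 of 45 fall and 3 rise (median -0.04). Among all tested genes 13.4% fell and 19.1% rose. ATF4 targets, which report the integrated stress response, had 7 of 30 rise and 5 fall (median 0.03), with Gdf15 rising (0.52) and the stress transcription factor Ddit3 falling (409, 379 and 383 FPKM with crRNA 3 against 534, 490 and 520 FPKM with NT). Unfolded protein response genes had 3 of 24 rise and 8 fall, p53 targets 6 of 18 rise and 5 fall, and cytosolic heat shock proteins 7 of 17 rise and 2 fall. Cholesterol synthesis genes had 7 of 27 rise and 0 fall (median 0.09). Sympathoadrenal genes had 8 of 18 rise and 3 fall (median 0.14), with the lineage factor Hand2 at 220, 211 and 186 FPKM with crRNA 3 and at 156, 161 and 145 FPKM with NT (0.41). Neuronal genes had 5 of 26 rise and 7 fall (median 0.04), among them the microtubule-associated protein gene Map1a (0.67) and the stathmin gene Stmn4 (-0.61).

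**Figure D4:**
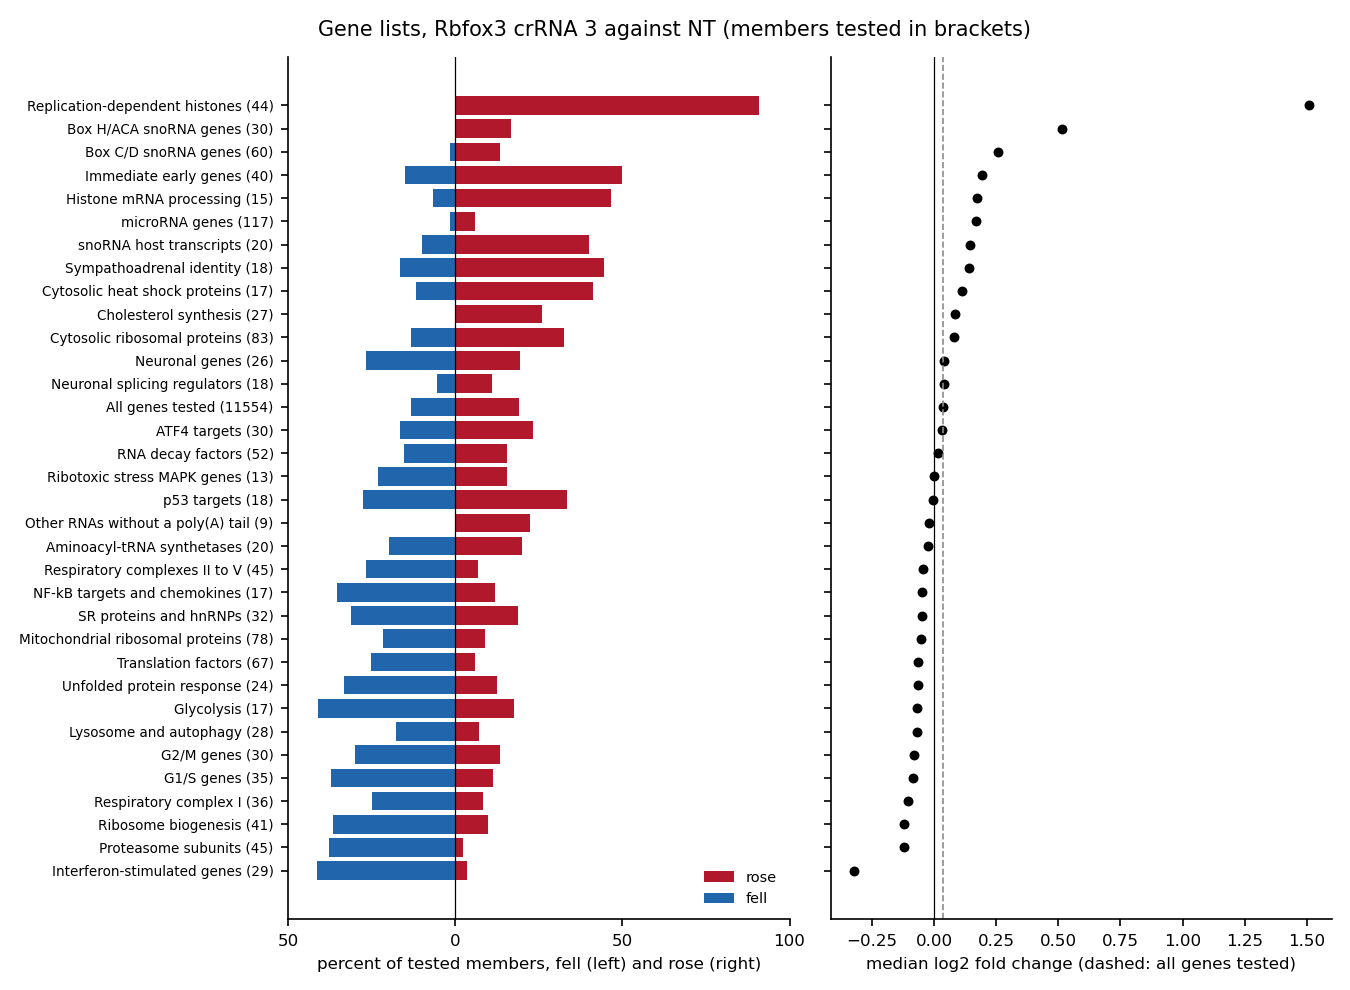
Left, the percent of tested members of each gene list that rose (red, right) or fell (blue, left) with crRNA 3 against NT. Right, the median log2 fold change, where the histone list stands at 1.51 and the interferon list at -0.32 beside 0.04 for all 11554 tested genes (dashed line).

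The same genes were then set beside the 6 other crRNAs of the WT set. Against the mean of these 6 crRNAs, 48 genes changed (0.415%), 47 higher (0.407%) and 1 lower (0.00866%), and 1572 rose (13.6%) and 1127 fell (9.75%). This comparison uses the same 3 crRNA 3 libraries as that with NT. Of the 44 tested histone genes, 39 rose and 0 fell (median log2 fold change 1.02), and for 19 of them all 3 crRNA 3 libraries were above all 18 others, against 1.92% of all tested genes that were above and 1.12% that were below all 18. The summed histone level of the 18 libraries was 190.4 to 465.2 FPKM with a median of 290.7 FPKM, so that crRNA 3 was higher than every one of them. Group means were 193.3 FPKM for Map2 crRNA 1, 225.5 for Sik3 crRNA 1, 252.0 for Mapt crRNA 4, 328.0 for Sik3 crRNA 8, 421.5 for Map2 crRNA 3 and 443.8 for Mapt crRNA 6, all between NT (174.8 ± 13.9) and crRNA 3 (678.7 ± 53.3, SD, n = 3 each). Among changed genes with a full name for which all 3 crRNA 3 libraries were above all 18 others, the 10 with the largest fold change were histone genes: H4c3, H3c11, H4c11, H4c1, H4c14, H4c9, H4c2, H2ac15, H4c4 and H2bc8, at log2 fold changes of 1.27 to 1.62. Snord104 was at 99.3 to 365 FPKM in the 18 libraries with a median of 218 FPKM, all below the lowest crRNA 3 library (log2 fold change against the 6 others 1.24, limma adjusted p = 1.8e-08). Dancr was at 3.54 to 9.1 FPKM in the 18 libraries, again all below crRNA 3 (1.02). Junb (0.46) and Ier5 (0.53) were above the 6 others as well.

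The lower genes looked different in this comparison. The median log2 fold change against the 6 others was 0.17 for the 28 genes that were lower than NT, and 0.88 for the 115 higher genes. Il17f was at 0.179 to 1.43 FPKM in the 18 other libraries, a range that held all 3 crRNA 3 libraries (log2 fold change -0.18, limma adjusted p = 0.55). Oasl1 was at 1.98 to 6.96 FPKM in the 18 libraries with a median of 3.48 FPKM, and crRNA 3 was higher than the mean of the 6 others (0.50, adjusted p = 0.00023) although lower than NT. Tmem242 was at 24.2 to 42.7 FPKM in the 18 libraries with a median of 29.5 FPKM, a range that held all 3 crRNA 3 libraries and none of the 3 NT libraries (-0.01, adjusted p = 0.93 for crRNA 3 against the 6 others). Of the 29 interferon-stimulated genes, 5 rose (17.2%) and 1 fell (3.45%) against the 6 others. Among all tested genes 13.6% rose and 9.75% fell in this comparison. Ribosome biogenesis factors, of which 15 fell against NT, had 24 rise and 1 fall against the 6 others (median 0.15), and glycolysis genes had 11 of 17 fall and 0 rise (median -0.16).

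**Figure D5:**
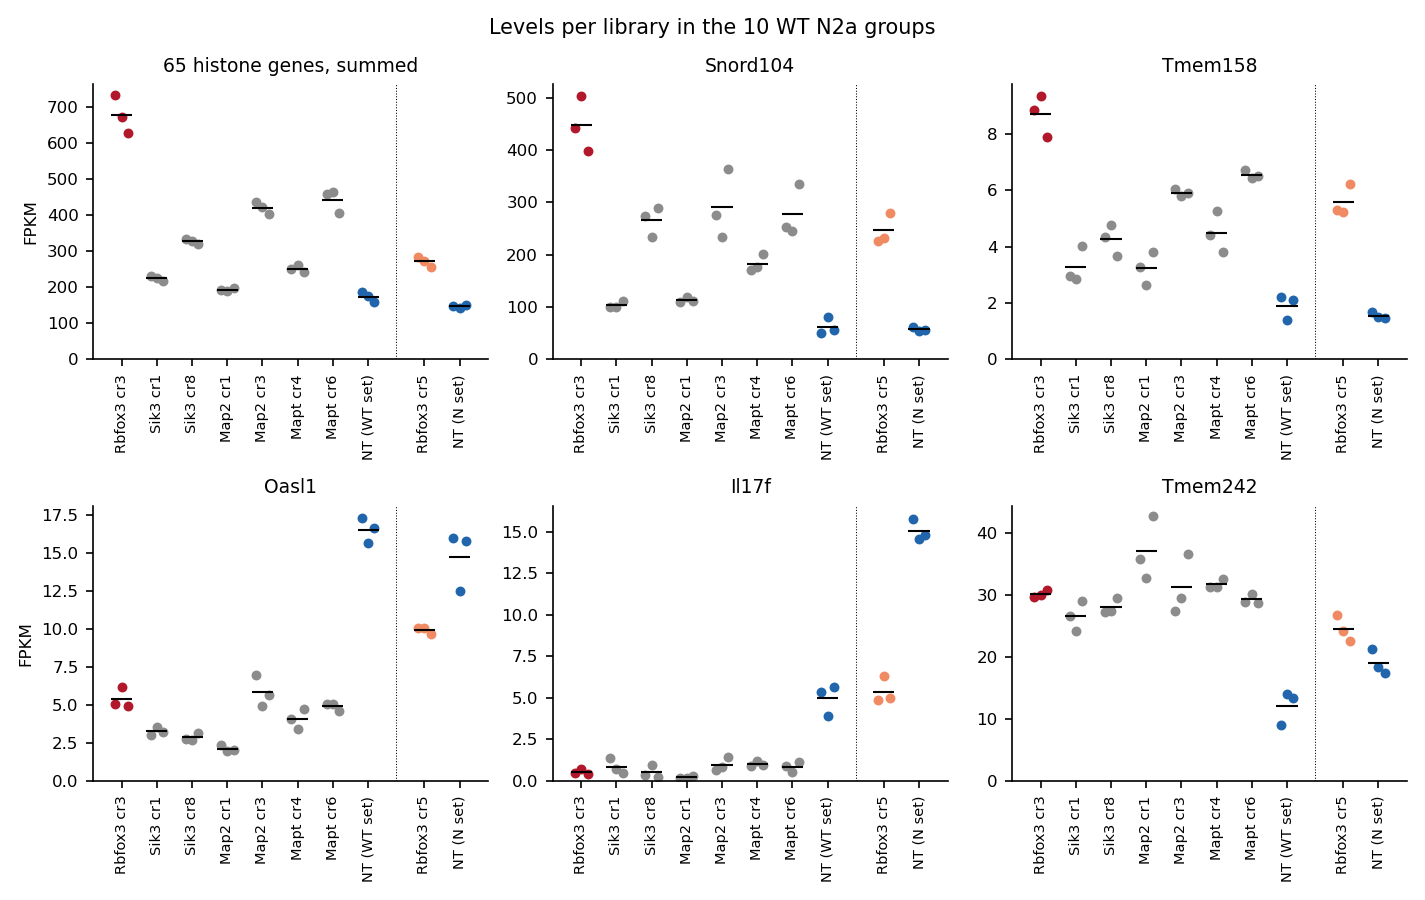
FPKM per library (points) and group mean (bars) in the 10 WT groups of N2a cells, with Rbfox3 crRNA 3 and 6 other crRNAs left of their NT libraries, and Rbfox3 crRNA 5 with NT of the N set right of the dotted line. Summed histone genes, Snord104 and Tmem158 are highest with crRNA 3, Oasl1 and Il17f are low in all 7 crRNAs of the WT set, and Tmem242 is above 24 FPKM in these 7 crRNAs and at most 14 FPKM with NT of the WT set.

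Rbfox3 crRNA 5, whose site adjoins that of crRNA 3, was compared through the difference of the effects, each crRNA against NT of its own set. The sets, read from the prefixes of the library names, may differ in experiment as well as in spacer, and these cannot be told apart. The Rbfox3 level with crRNA 5 was 1 to 5 reads per library, and 0 to 4 reads with its NT, so the target was near the detection limit under both spacers. Against its NT, crRNA 5 had 69 changed genes (0.597%), 58 higher (0.502%) and 11 lower (0.0952%), and 12.6% of genes rose and 13.1% fell. In the difference of the effects 24 genes changed (0.208%). Of these, 17 had a higher effect with crRNA 3 (0.147%) and 7 a lower one (0.0606%), and 412 (3.57%) and 225 (1.95%) passed the adjusted p alone. A higher or lower effect means a higher or lower signed log2 fold change, so a lower effect can be a stronger fall. Of the 44 histone genes, 14 had a higher effect with crRNA 3 and 0 a lower one (median difference 0.95 on the log2 scale). The summed histone level was 257.4 to 285.9 FPKM with crRNA 5 against 141.6 to 152.2 FPKM with its NT, a 1.84-fold higher mean, beside the 3.88-fold of crRNA 3. H4c14 was 2.32-fold higher in mean with crRNA 5 than with its NT, and the difference of effects was 2.07 (log2 scale, limma adjusted p = 1.3e-06). For H3c11 the difference was 1.82 (limma adjusted p = 0.0014), and for H4c2 it was 3.21 (adjusted p = 0.0003). Mean H4c2 was 13.7 FPKM with crRNA 3 against 1.32 FPKM with NT of the WT set. With crRNA 5 it was 2.97 FPKM against 3.43 FPKM with NT of the N set, so the NT levels differed too.

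Outside the histone genes, differences between the effects of the crRNAs ran both ways. Rsad2 (difference -1.11, limma adjusted p = 0.00034) and Oasl1 (-0.99, adjusted p = 0.00066) were further below NT with crRNA 3 than with crRNA 5. Rsad2 was at 0.289 of its NT mean with crRNA 3 and 0.688 with crRNA 5, and Oasl1 at 0.327 and 0.672. Snord104 had a higher effect with crRNA 3 by 0.76 (adjusted p = 0.028), and Tmem158 a difference of 0.39 with no call (adjusted p = 0.28). Rps18 was 2.35-fold above NT with crRNA 3 and 2.32-fold with crRNA 5, with a difference of 0.01 and no call. Rrs1 was 1.88-fold above NT with crRNA 3 and 1.95-fold with crRNA 5, again with no call for the difference. Of 27 cholesterol synthesis genes, 11 had a higher effect with crRNA 3 and 0 a lower one, beside 3.57% and 1.95% of all tested genes. With crRNA 5 against its NT, 0 of the 27 rose and 12 fell (median log2 fold change -0.16), beside 12.6% and 13.1% of all genes. With crRNA 3, 7 rose (25.9%) and 0 fell against NT, beside 19.1% and 13.4% of all genes. Against the 6 other crRNAs 1 rose and 10 fell, beside 13.6% and 9.75% of all genes.

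Transcripts with an imperfect site for the spacer of crRNA 3 were listed in GRCm38, to see the values of genes that the spacer could pair with. Besides Rbfox3, 1 gene had 1 to 3 mismatches and 5 had 4 mismatches, and 94 had 5. The sites of 2 of the genes with 4 mismatches, both protein-coding, are shown, with mismatched bases in capitals, beside that of Cnpy2, a gene that fell.

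Rbfox1, 4 mismatches: tggtgcAgaCatttatggTggT
Zcchc8, 4 mismatches: tggtgctgTgaCttGtggaAgc
Cnpy2, 5 mismatches: tggtgctgGgattAaAggCAgc

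The Rbfox1 site is in the coding sequence on chromosome 16 and also crosses an exon junction, and its mRNA was at most 0.114 FPKM. The site of Zcchc8, at chr5:123699250-123699271, and that of Cnpy2, at chr10:128327347-128327368, are in 3′ UTRs. Of 85 genes of the table with 1 to 5 mismatches, 55 were tested, 16 rose, 5 fell and 0 changed by 2-fold, with a median log2 fold change of 0.08 beside 0.04 for all tested genes. The 16 of 55 that rose stand beside 19.1% of all genes, and the 5 of 55 that fell beside 13.4%. Of genes with 1 to 4 mismatches 3 were tested and 0 were called. Cnpy2, an endoplasmic reticulum protein gene, was at 71.7, 68.7 and 68.8 FPKM with crRNA 3 and at 99.3, 89.5 and 86.4 FPKM with NT (log2 fold change -0.39 ± 0.08 SE, limma adjusted p = 0.00053), and at 48.6 to 82.2 FPKM in the 18 libraries of the 6 other crRNAs, whose spacers differ.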

How the data were processed

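Poly(A)-selected RNA libraries of N2a cells were sequenced by the authors, aligned to mm10 with Subread and counted with featureCounts. The values used here are the FPKM per gene that the authors deposited. For tool versions, gene annotation and strandedness, the status is: not given in the sources used here. The study itself tested counts with DESeq2, and a count test was not run here.

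A linear model of log2(FPKM + 0.5) was fitted in limma 3.58.1 under R 4.3.3 to all 30 WT libraries in 10 groups, with library series as covariate. It used a mean-dependent prior variance, and 2-sided p-values were adjusted by Benjamini-Hochberg over 11554 genes. These were genes with a mean of at least 1 FPKM, and the targets Rbfox3, Sik3, Map2 and Mapt whatever their level, Rbfox3 being below the filter. Fold changes on this scale understate low genes. Libraries of the tdTomato line, in a separate table, were not used. Depth was estimated from FPKM steps of 1 read with GRCm38 exon lengths, and 94.9% to 98.6% of low values came out as whole reads within 0.02 reads. Spacers from the study were matched to GENCODE M21 transcripts (24730 of 25239 genes matched). Simulated data for crRNA 3 against NT held 11554 genes with normal noise of the fitted spread. Only genes with a mean log2(FPKM + 0.5) above 1 were moved. Of the moved genes, 98% of those changed by 1.2 (log2) and 99% of those changed by 2 were recovered. Lower genes were not moved, so these shares do not cover them.

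The leading genes against NT had an adjusted p under 0.05, at least a 2-fold change and no overlap between crRNA 3 and NT libraries, predicted genes being passed over. They were the 15 largest each way outside histone and small RNA genes (the next largest with an adjusted p under 0.05 where fewer had a 2-fold change), the 8 largest histone genes, and 6 snoRNA and 4 microRNA genes each way. Against the 6 other crRNAs, 10 each way with at least a 2-fold change and no overlap with the 18 libraries were named. At an adjusted p under 0.05 alone, 8 each way for the difference from crRNA 5 and up to 3 list members each way were named. RBFOX, splicing regulator, immediate early, Il17 and spacer-site genes were always eligible. The comparison, rules and 39 gene lists were chosen with earlier results of these data known. A few genes that the rule would name are not reported here.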

Additional observations from a re-analysis of the deposited data

Results flagged for a closer look

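The effect of Rbfox3 crRNA 3 and that of crRNA 5, each against NT of its own set, differed for 24 genes by the test of the difference (limma, adjusted p under 0.05 and at least 2-fold). Experiment set and spacer cannot be told apart in this difference. The genes named here are the leading ones with an adjusted p under 0.05, of which Oasl1 and Amh were just under 2-fold and so are not among the 24. On the log2 scale (crRNA 3 effect minus crRNA 5 effect), the histone genes H4c2 (3.21), H4c3 (2.17), H4c14 (2.07), H3c11 (1.82) and H4c1 (1.63) had a higher effect with crRNA 3, as did the defensin gene Defb41 (1.65) and the microRNA genes Mir378a (4.46) and Mir195b (2.54).

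A lower effect with crRNA 3 was found for the interferon-stimulated genes Oasl1 (-0.99) and Rsad2 (-1.11), the chemokine gene Ccl5 (-1.63), Amh, which encodes anti-Müllerian hormone (-0.997), Ankrd53 (-1.04), Rwdd2a (-1.09), Snora23 (-2.12) and Scarna6 (-2.18). Mean Ccl5 was 1.01 FPKM with crRNA 3 and 0.951 FPKM with crRNA 5. With NT it was 2.75 FPKM in the WT set and 0.506 FPKM in the N set, so mainly the NT levels differed. Mean Amh with NT differed too, at 3.504 FPKM in the WT set and 11.98 FPKM in the N set. Mean Ankrd53 was close in these NT groups (2.24 and 2.17 FPKM), and was 1.44 FPKM with crRNA 3 and 3.33 FPKM with crRNA 5. For Mir378a the crRNA 3 and NT libraries were at most 4.06 FPKM, and it was listed at 0 in all 3 crRNA 5 libraries against 8.87, 2.38 and 4.85 FPKM with NT of the N set. Scarna6 was at 1.43, 1.35 and 0.292 FPKM with crRNA 3 and at 1.42, 1.6 and 1.31 FPKM with NT, and at 1.85, 1.02 and 1.55 FPKM with crRNA 5 against 0, 0.317 and 0 FPKM with NT of the N set.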

How the results depend on the processing

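Counts of changed genes depended most on the filter. With a mean of at least 5 FPKM, 51 genes changed against NT (48 higher, 3 lower), 24 against the 6 other crRNAs, 10 in the difference from crRNA 5 and 60 between the NT sets. A pseudocount of 1 gave 30 genes against the 6 others and 83 between the NT sets, and a pseudocount of 0.1 gave 202 between the NT sets. These filters and pseudocounts act on low genes by construction. Against NT, the other alternatives gave 102 to 183 genes, and with all 6 NT libraries as control 175 genes changed, 119 of them shared with the 143. That control turned Sqstm1 to 0.0084, against -0.19 (log2). Leaving out 1 library gave 126 to 151 genes against NT, 40 to 51 against the 6 others, 19 to 28 in the difference from crRNA 5 and 126 to 143 between the NT sets. Of 241 named genes called against NT, 64 lost the call under at least 1 alternative that kept all libraries or took a fixed subset, and 49 lost it on leaving out 1 library.

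The main fit did not pair samples by replicate number. Deviations of same-numbered crRNA 3 and NT libraries (NT replicate 6 counted as 3) correlated at 0.086, 0.076 and 0.083. Those of differently numbered libraries correlated at -0.074 to -0.012. After the series term, the values were 0.075, 0.003 and -0.113 for the same number and -0.146 to 0.153 for different numbers. With a replicate block 143 genes changed against NT, 141 of them shared, and 49 against the 6 others.

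Depth limits Rbfox3, most microRNA genes and several snoRNA genes, which had a few reads per library.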
